A study of Mus musculus with 9 samples.

Results

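The genes described here encode 8 heat shock proteins and chaperones, Hspa1a, Hspa8, Dnajb1, Hsp90aa1, Hspb1, Hspb8, Hspd1 and Hspe1, measured in Reissner's membrane of the mouse cochlea. They were taken by gene symbol, and every probe set annotated to one of these symbols alone was followed, 20 of the 45101 probe sets on the array. Reissner's membrane is the thin 2-layered sheet between the scala media and the scala vestibuli. Membranes of adult mice were dissected by hand and fell into 3 groups with 3 Affymetrix arrays each, lettered A to C, 9 arrays in all. Dexamethasone arrays came from explants kept for 24 h with dexamethasone, a synthetic glucocorticoid. The dose was 100 nM in the design text and on the label of array A, while the labels of arrays B and C give the unit as mM. Incubated arrays came from explants kept for 24 h without it, and fresh arrays from membranes extracted without culture. Strain and sex were not given in the sources used here. Membranes were pooled and 3 chips were hybridised per biological sample according to the design text, so p-values measure how far these arrays spread, and that spread may be technical.

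Heat shock proteins bind unfolded polypeptides and help them fold, hold them soluble or pass them on for degradation. HSP70 proteins work with DNAJ (HSP40) partners that deliver substrates and speed ATP hydrolysis. HSP90 finishes and stabilises clients that include the glucocorticoid receptor, small heat shock proteins hold unfolded clients without ATP, and the HSP60 and HSP10 chaperonin folds proteins inside mitochondria. Many of these genes are activated by heat shock factor 1 through heat shock elements, inverted repeats of the unit GAA spaced by any 2 bases.

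RefSeq promoter windows (build GRCm38.p6, 250 bases before to 50 after a start) were found for 6 of the 8 genes. Hspa8 and Hsp90aa1 were not matched. The 3 windows shown hold matches to the heat shock element upstream of genes whose signals rose in culture. Bases before the start are printed 5′ to 3′ on the gene's strand, and capitals mark matches to GAANNTTC or TTCNNGAA.
Hspa1a, minus strand, chr17:34972157-34972406: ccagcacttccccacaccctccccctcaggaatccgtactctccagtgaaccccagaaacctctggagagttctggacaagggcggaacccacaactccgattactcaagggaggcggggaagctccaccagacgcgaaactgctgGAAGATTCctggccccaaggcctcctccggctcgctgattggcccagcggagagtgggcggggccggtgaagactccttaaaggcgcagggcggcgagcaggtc
Hspb1, plus strand, chr5:135887669-135887918: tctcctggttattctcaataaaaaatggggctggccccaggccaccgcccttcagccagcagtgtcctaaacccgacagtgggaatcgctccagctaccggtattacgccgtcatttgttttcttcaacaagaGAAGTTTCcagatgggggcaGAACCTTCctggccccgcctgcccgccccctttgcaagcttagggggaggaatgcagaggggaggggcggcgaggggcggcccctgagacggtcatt
Hspe1, plus strand, chr1:55087898-55088147: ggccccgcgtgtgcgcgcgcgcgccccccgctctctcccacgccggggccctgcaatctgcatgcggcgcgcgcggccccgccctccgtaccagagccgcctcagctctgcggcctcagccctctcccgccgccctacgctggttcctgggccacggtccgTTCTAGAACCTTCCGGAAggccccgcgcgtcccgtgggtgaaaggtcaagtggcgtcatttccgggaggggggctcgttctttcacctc

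The run in capitals upstream of Hspe1 begins 89 bases before the start and holds 3 overlapping matches. It also holds the 3-unit form, in which another unit follows in the alternate orientation after any 2 bases. The same DNA lies in a window of Hspd1, which is transcribed the opposite way, and the 2 annotated genes overlap by 96 bases on chromosome 1. The other window of Hspd1 had no match. Hspa1a had 1 match, 104 bases before its start, and Hspb1 had 2, at 117 and 97 bases. Hspb8 had 1 match, just after its start, and neither window of Dnajb1 had any. In all, 5 of the 6 genes with windows had a 2-unit match, a form found for 17.0% of 27025 genes with windows. Hspd1 and Hspe1 are each counted for the same DNA, so their matches are not independent. The 3-unit form was found for Hspd1 and Hspe1, in that shared DNA, and for 0.662% of genes. The full glucocorticoid response element, AGAACA and TGTTCT with any 3 bases between them, was in no window of the 6 genes (0.0111% of genes), and its half-site AGAACA or TGTTCT was in windows of Hspb8 and Dnajb1 (21.3% of genes). A match describes the letters in these windows and was not tested as a binding site.

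Signals were on the authors' linear scale, and the trimmed mean of each array was 500. Probe sets reaching 200 on at least 3 of the 9 arrays were tested, 18913 in all, and they covered 10242 genes. Of the 20 probe sets, 18 were tested, and each gene is represented by its brightest tested one. The 2 that were not tested, both of Hsp90aa1, did not exceed 53.1 on any array. Arrays of 1 group correlated at 0.992 to 0.993 (Pearson's r, log2 scale, over probe sets). All 9 epithelial markers listed reached 200 in each group. Fresh arrays also carried cochlear fibrocyte markers (summed signal of 8 genes was 87482 to 88913) and neuron markers (8 genes, 23637 to 24679). In incubated arrays these sums were 12281 to 13982 and 460.8 to 508.7, while the sum of epithelial markers was 83361 to 87235, against 39335 to 40936 in fresh arrays. Of the 8 glucocorticoid receptor targets used to check the treatment, 7 rose with dexamethasone and 1 fell. Fkbp5 rose by 1.99 ± 0.10 on the log2 scale (limma adjusted p = 2.3e-08), and Sgk1 fell by 0.15 ± 0.052 (limma adjusted p = 0.028).

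Changes are given ± SE as differences between group means of log2(signal plus 32), from 1 limma fit to all 9 arrays (3 per group). After 24 h in culture, 7 of the 8 genes rose and 1 fell, where 36% of all genes tested rose and 40.7% fell. The median change of the 8 genes was 0.51, and that of all genes was -0.039. With dexamethasone in the medium, 6 of the 8 rose and none fell relative to incubated explants, where 22.3% of all genes rose and 28.7% fell. That count was 5 higher and 1 lower with median centring and 1 higher and 3 lower with hybridization-control scaling, described below. The incubated arrays are shared by both comparisons. Against fresh tissue, 7 of the 8 genes rose with dexamethasone and none fell, where 35.4% of all genes rose and 42.7% fell.

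**Figure D1:**
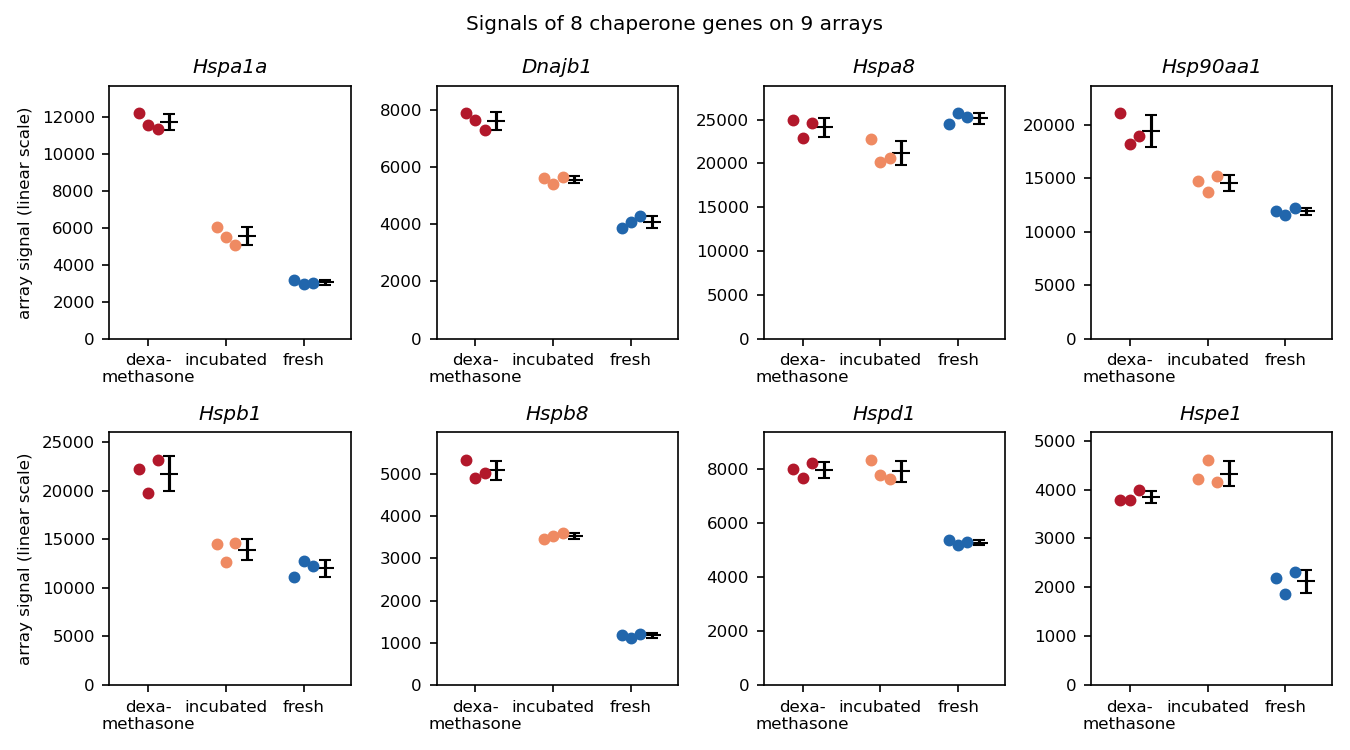
Array signal (linear scale) of the probe set representing each of 8 chaperone genes, with 1 point per array and, beside it, the mean ± SD of the 3 arrays of a group. Hspa1a, Dnajb1, Hsp90aa1 and Hspb8 form 3 separate levels with dexamethasone arrays highest, whereas Hspd1 has dexamethasone and incubated arrays at one level above fresh arrays.

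Hspa1a encodes a stress-inducible cytosolic HSP70. Its signal was 12199.9, 11574.9 and 11355.7 in dexamethasone arrays, 6031, 5519.1 and 5043.3 in incubated arrays and 3161.8, 2943 and 2991.9 in fresh arrays. The 3 groups did not overlap, and each array with dexamethasone was at a level above every incubated array. Hspa1a rose by 0.86 ± 0.062 in culture (adjusted p = 5.47e-08) and by 1.08 ± 0.062 with dexamethasone (adjusted p = 5.95e-08), the largest dexamethasone change among the 8 representing probe sets. Together the changes made a mean of 11710 ± 438 with dexamethasone, against 3032 ± 115 in fresh membrane (SD, n = 3 each), a ratio of 3.86.

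Hspa1b, the neighbouring HSP70 gene, moved with it. The promoter windows of the 2 genes differ at 4 of 300 bases. Probe and transcript sequences were not compared, and a probe set may bind transcripts of either gene. The 2 genes therefore cannot be told apart with certainty here. The 3 probe sets of Hspa1b rose by 0.62 to 1.08 in culture (adjusted p at most 2.99e-07). With dexamethasone they rose by 0.52 to 0.67 (adjusted p at most 2e-05). The brightest of them was not called higher with hybridization-control scaling. On that scale no gene of the HSP70 and HSP110 list rose with dexamethasone (largest change 0.04), where 4.04% of all genes rose and 77.6% fell. All 3 dexamethasone increases were smaller than the 1.08 of the Hspa1a probe set.

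Dnajb1 encodes an HSP40 that partners HSP70. Its representing probe set read 7880.5, 7632.9 and 7271.8 in dexamethasone arrays, 5624, 5401.7 and 5647 in incubated arrays and 3851.5, 4078.7 and 4285.6 in fresh arrays. The groups were again separate. Dnajb1 rose by 0.45 ± 0.051 in culture (adjusted p = 4.17e-06) and by 0.45 ± 0.051 with dexamethasone (adjusted p = 1.56e-05). The dexamethasone call was lost with hybridization-control scaling (-0.03, adjusted p = 0.754). A second Dnajb1 probe set, with lower signals, showed larger changes in the same direction. It averaged 1271.6 ± 29.4 with dexamethasone, 644.5 ± 39.96 in incubated explants and 217.1 ± 12.7 in fresh membrane (SD, n = 3 each). Those are increases of 1.44 ± 0.075 in culture and 0.95 ± 0.075 with dexamethasone (adjusted p at most 8.32e-07).

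Hspa8, the constitutively expressed HSP70, gave the only fall among the 8 genes, and its 4 probe sets did not move together. The representing probe set read 24984.8, 22900.5 and 24569.8 in dexamethasone arrays, 22796.4, 20160.7 and 20675.5 in incubated arrays and 24495.7, 25763.3 and 25267.3 in fresh arrays. Incubated arrays were lowest, and dexamethasone and fresh arrays overlapped. Hspa8 fell by 0.25 ± 0.054 in culture (adjusted p = 0.0011) and rose by 0.19 ± 0.054 with dexamethasone (adjusted p = 0.0115). None of the other 3 probe sets passed the test with dexamethasone (0.13, 0.11 and 0.09, adjusted p at least 0.131). The rise was lost with quantile normalization (0.01, adjusted p = 0.78) and median centring (0.07, adjusted p = 0.317), and was a fall with hybridization-control scaling (-0.29, adjusted p = 0.00328). Against fresh membrane the difference with dexamethasone was -0.06 ± 0.054 (adjusted p = 0.324). In culture the next brightest probe set also fell (-0.275 ± 0.067), while the dimmest rose (0.53 ± 0.13). The remaining one gave 0.22 ± 0.12 without passing the test (adjusted p = 0.108), with incubated arrays spread between 6082.3 and 9206.3. The Hspa8 fall in culture did not hold under the other scalings of the arrays, given below, nor when its probe sets were averaged (0.06, adjusted p = 0.264).

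Hsp90aa1 encodes the inducible cytosolic HSP90. Its representing probe set read 21117, 18199.2 and 18997.1 in dexamethasone arrays, 14739, 13746.4 and 15176.7 in incubated arrays and 11918.8, 11550.4 and 12255.9 in fresh arrays. The 3 groups did not overlap. Hsp90aa1 rose by 0.29 ± 0.059 in culture (adjusted p = 6.62e-04) and by 0.415 ± 0.059 with dexamethasone (adjusted p = 8.74e-05), a call lost with hybridization-control scaling (-0.06, adjusted p = 0.464). All 3 tested probe sets rose in culture, by 0.24 to 0.34. With dexamethasone 2 rose, and the other gave 0.10 ± 0.072 (adjusted p = 0.258), with overlapping arrays.

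The small heat shock protein genes Hspb1 and Hspb8 both rose in both comparisons. Hspb1, which encodes the mouse counterpart of HSP27, read 22266.2, 19749 and 23227.5 in dexamethasone arrays, 14484.8, 12667.7 and 14638.6 in incubated arrays and 11085.2, 12761 and 12278 in fresh arrays. Dexamethasone arrays stood above the rest, while incubated and fresh arrays overlapped. Hspb1 rose by 0.64 ± 0.075 with dexamethasone (adjusted p = 1.89e-05) and by 0.21 ± 0.075 in culture (adjusted p = 0.0226). With hybridization-control scaling the dexamethasone difference was 0.17 (adjusted p = 0.119). The culture call was lost when incubated array A (adjusted p = 0.0746), incubated array C (adjusted p = 0.0882) or fresh array A (adjusted p = 0.11) was left out. The other Hspb1 probe set rose by 0.84 ± 0.068 with dexamethasone and by 0.34 ± 0.068 in culture (adjusted p at most 5.92e-04).

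Hspb8 encodes a small heat shock protein that acts with the co-chaperone BAG3. Its representing probe set read 5340.7, 4901.3 and 5014.1 in dexamethasone arrays, 3470.2, 3533.5 and 3611.8 in incubated arrays and 1190.5, 1116.4 and 1215.9 in fresh arrays. The groups were separate, with fresh arrays lowest. Hspb8 rose by 1.57 ± 0.052 in culture (adjusted p = 3.97e-11), the largest culture change among the 8 representing probe sets, and by 0.52 ± 0.052 with dexamethasone (adjusted p = 5.24e-06). With hybridization-control scaling the dexamethasone call was lost (0.05, adjusted p = 0.523). The 2 dimmer Hspb8 probe sets gave 0.72 ± 0.13 (adjusted p = 2.52e-04) and 0.39 ± 0.20 (adjusted p = 0.102) in culture. With dexamethasone they gave 0.32 ± 0.13 (adjusted p = 0.0548) and 0.44 ± 0.20 (adjusted p = 0.0903).

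Hspd1 and Hspe1 encode HSP60 and HSP10, the mitochondrial chaperonin and its lid, and share the DNA with the 3-unit heat shock element shown above. Hspd1 read 7990.8, 7652.8 and 8236.4 in dexamethasone arrays, 8352, 7777.3 and 7617.3 in incubated arrays and 5359, 5178.4 and 5289.3 in fresh arrays. Both culture groups were above fresh membrane and overlapped each other. Hspd1 rose by 0.58 ± 0.048 in culture (adjusted p = 1.97e-07), and the difference with dexamethasone was 0.01 ± 0.048 (adjusted p = 0.898).

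Hspe1 read 3788.3, 3782.3 and 3987.6 in dexamethasone arrays, 4220.5, 4615.7 and 4146.4 in incubated arrays and 2194.7, 1865.2 and 2305.9 in fresh arrays. It rose by 1.02 ± 0.073 in culture (adjusted p = 4.51e-08). Each dexamethasone array lay below each incubated array, by a difference of -0.165 ± 0.073 that did not pass the test (adjusted p = 0.0729). Hspe1 was called lower with median centring (-0.28, adjusted p = 0.00746) and hybridization-control scaling (-0.64, adjusted p = 6.2e-07). With quantile normalization it was not (-0.13, adjusted p = 0.152). A second Hspe1 probe set rose by 0.67 ± 0.097 in culture (adjusted p = 3.72e-05) and gave -0.03 ± 0.097 with dexamethasone (adjusted p = 0.799).

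**Figure D2:**
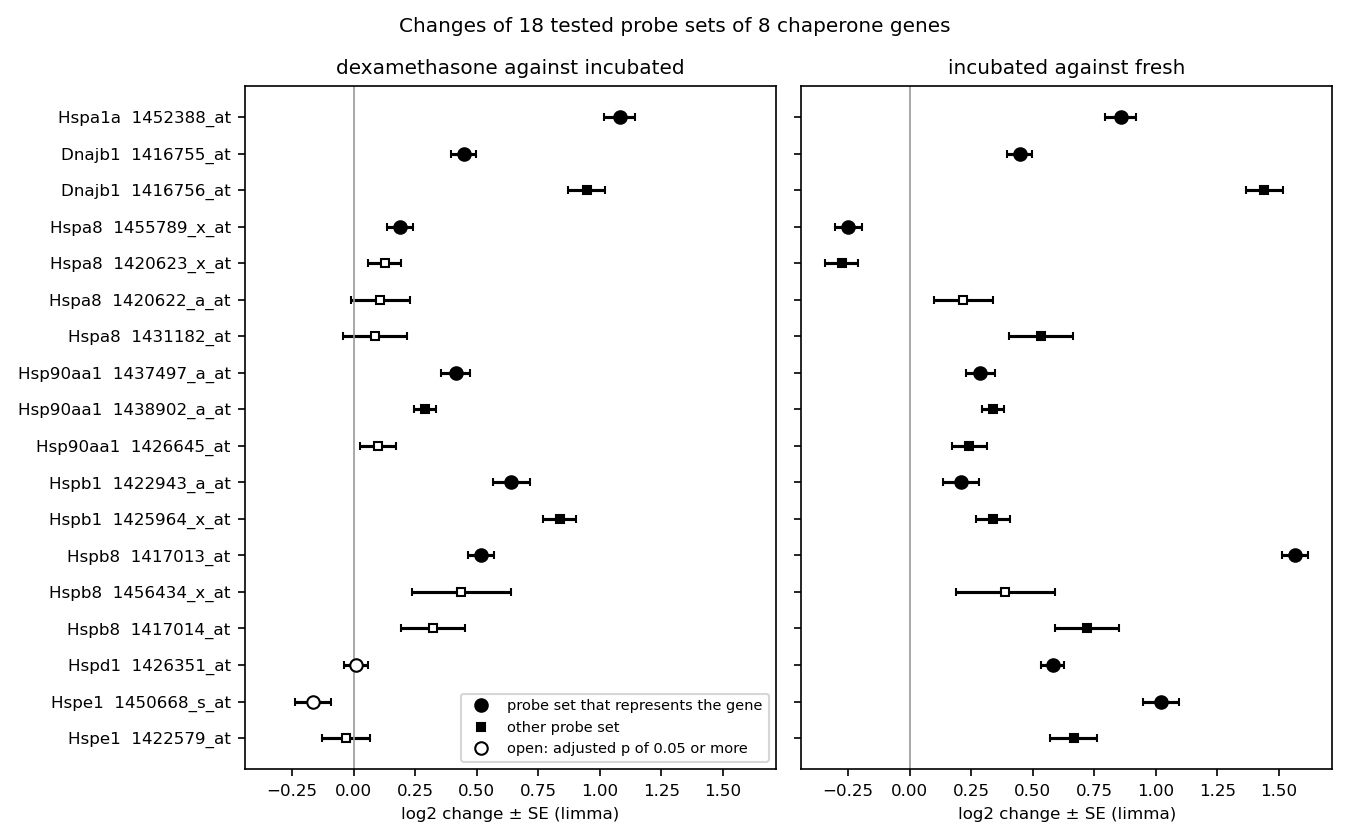
Log2 change ± SE of the 18 tested probe sets of the 8 genes, with circles for the probe set that represents a gene and squares for the others, and with open symbols where the adjusted p was 0.05 or more. With dexamethasone the probe sets of Hspd1 and Hspe1 lie near or below 0 and those of the other 6 genes above it, while in culture only Hspa8 has probe sets below 0.

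The direction of several dexamethasone changes depended on how arrays were put on one scale. The authors scaled each array over all probe sets. When arrays were scaled to their hybridization controls instead, transcripts added in known amounts before hybridization, the median change of all genes with dexamethasone became -0.485, with 4.04% of genes higher and 77.6% lower. On that scale Hspa1a still rose (0.61, adjusted p = 1.38e-06), and 1 of the 8 genes rose and 3 fell. Hspb8, Hspb1, Dnajb1 and Hsp90aa1 did not pass the test, and Hspd1 (-0.465), Hspe1 (-0.64) and Hspa8 (-0.29) fell. Relative to the median gene the changes moved less. That was fixed in advance, because 1 factor per array shifts genes nearly alike, and it adds no support for a rise. Hspa1a was 1.09 above the median gene on that scale and 1.11 above it as deposited. Hsp90aa1 was 0.425 above it, against 0.445 as deposited, and Hspd1 was 0.02 above it, against 0.04. Median centring gave a median gene of -0.15 with dexamethasone (13.8% higher, 41.8% lower) and called 5 of the 8 genes higher and 1, Hspe1, lower.

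In culture the other scalings worked the opposite way. The median gene was at 0.28 with hybridization-control scaling (53.6% higher, 23.8% lower) and at 0.305 with median centring (56.2% higher, 23.5% lower). On both scales 7 of the 8 genes rose and none fell, and Hspa8 was at 0.08 without passing the test.

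**Figure D3:**
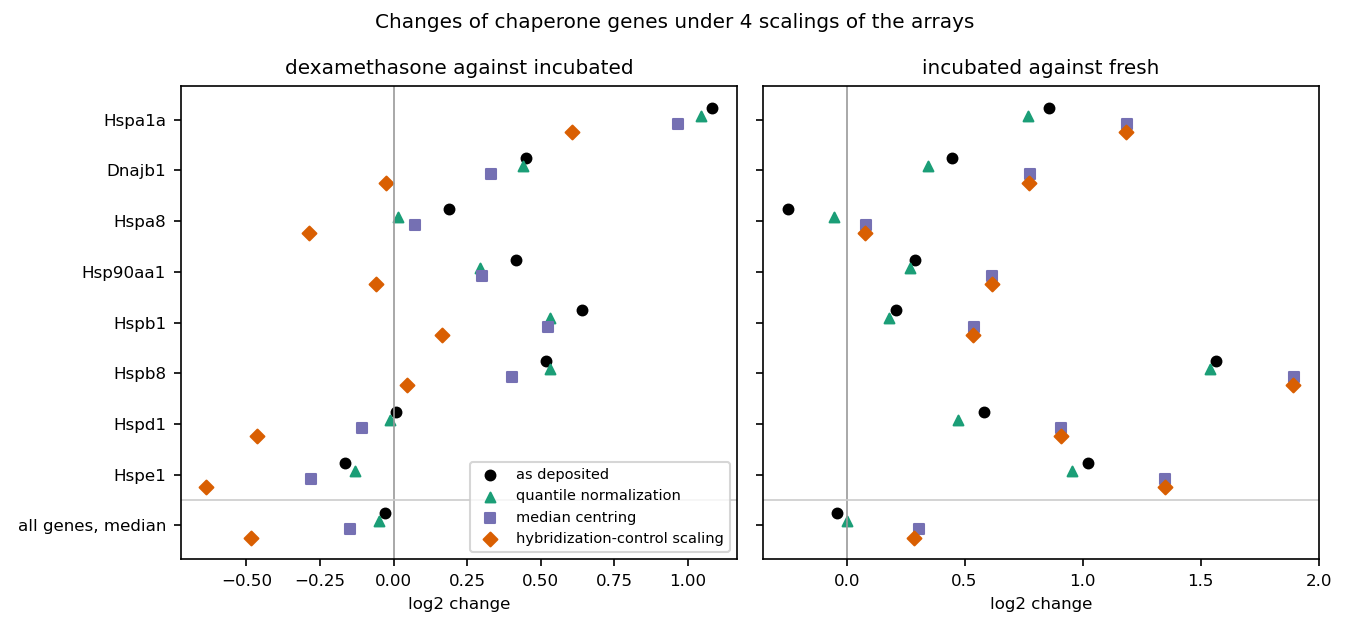
Log2 change of each of the 8 genes and of the median of all tested genes under 4 ways of scaling the arrays. Hybridization-control scaling moves every gene and the median left by a similar step with dexamethasone, to -0.485 for the median, and right in culture, to 0.28.

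A scaling factor cancels in the difference between 2 genes on the same array, so the log2 signal of each gene was also set against that of Hspd1 and centred on the incubated mean. Hspd1 was chosen for this after its change of 0.01 with dexamethasone was seen, so the differences restate the deposited changes and add no support for a rise. They describe unequal change only, since Hspd1 itself fell on the hybridization-control scale. For Hspa1a the difference was 1.13, 1.11 and 0.98 in dexamethasone arrays, against 0.050, 0.025 and -0.075 in incubated arrays. In culture the mean difference from Hspd1 was 0.985 for Hspb8, 0.44 for Hspe1 and 0.28 for Hspa1a. It was -0.135 for Dnajb1, -0.29 for Hsp90aa1, -0.37 for Hspb1 and -0.83 for Hspa8. For Dnajb1 this difference overlapped between incubated and fresh arrays.

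Measures of RNA quality and summed cell type markers differed between the groups as well. The 3′ to 5′ signal ratio of the beta-actin control was 1.86 to 1.96 in incubated arrays, against 3.97 to 4.26 in fresh arrays, and the Gapdh ratio was 3.46 to 3.88, against 6.91 to 7.53. With dexamethasone the ratios were 1.79 to 1.96 and 5.02 to 5.47. The summed epithelial markers were 96081 to 101311 with dexamethasone, above both other groups, and 7 of the 9 genes rose relative to incubated explants, while Epcam fell (-0.31, adjusted p = 6.31e-05). In culture 8 of the 9 rose and none fell. Their part in the changes of the 8 genes was not tested, and fewer cells of a type and less RNA per cell cannot be told apart in such samples.

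The other chaperone genes were followed through 9 lists with 81 genes, of which 76 had a probe set of their own and 66 were tested. In culture 44 rose and 11 fell, with a median of 0.40, where 36% of all genes rose and 40.7% fell. With dexamethasone 12 rose and 18 fell, with a median of -0.06. The dexamethasone counts are near the shares of all genes given above.

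The cytosolic chaperonin TRiC, a ring that folds actin and tubulin, had all 8 tested subunits higher in culture (median 0.685), and that count was 8 under each scaling. Cct8 rose by 1.21 ± 0.060, Cct6a by 0.88 ± 0.051 and Cct5 by 0.695 ± 0.045 (adjusted p at most 1.82e-08). Prefoldin, which hands unfolded actin and tubulin to TRiC, had 5 of 6 subunits higher and 1 lower. Its increases included Pfdn1 (1.02 ± 0.063), Pfdn4 (0.74 ± 0.081) and Vbp1 (0.51 ± 0.049). With dexamethasone 6 TRiC and 4 prefoldin genes were not called, and each complex had 1 subunit higher and 1 lower. Cct3 (0.14 ± 0.044) and Pfdn1 (0.27 ± 0.063) rose, and Cct8 (-0.265 ± 0.060) and Pfdn2 (-0.31 ± 0.089) fell. With quantile normalization no TRiC gene rose and 3 fell, and 2 prefoldin genes rose and 1 fell. Of all genes, 20.7% rose and 30% fell on that scale. With median centring no gene of either complex rose, and 4 TRiC and 3 prefoldin genes fell (13.8% of all genes rose and 41.8% fell). On the hybridization-control scale, where 77.6% of all genes fell and the median gene was at -0.485, all 8 TRiC (median -0.50) and all 6 prefoldin genes (median -0.51) fell with dexamethasone, near that general shift.

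Of 9 other mitochondrial chaperone and protease genes, 7 rose in culture and 1 fell (median 0.52). Hspa9, the mitochondrial HSP70, averaged 10246 ± 505 in incubated explants and 4967 ± 99.0 in fresh membrane (SD, n = 3 each) and rose by 1.04 ± 0.048. Its nucleotide exchange factor Grpel1 (0.79 ± 0.058) and the protease Lonp1 (1.10 ± 0.083) also rose (adjusted p at most 7.78e-08). None rose with dexamethasone and 2 fell, Hscb (-0.595 ± 0.092), which serves iron-sulphur cluster assembly, and Grpel1 (-0.28 ± 0.058). Hspa9 gave 0.01 ± 0.048 with dexamethasone (adjusted p = 0.879), as Hspd1 did.

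All 4 tested small heat shock protein genes of the list rose in culture, and 1 rose with dexamethasone. Cryab, the alpha-B-crystallin gene, averaged 27178 ± 2164 with dexamethasone, 21144 ± 245 in incubated explants and 15928 ± 130 in fresh membrane (SD, n = 3 each). It rose by 0.41 ± 0.053 in culture (adjusted p = 1.35e-05) and by 0.36 ± 0.053 with dexamethasone (adjusted p = 1.17e-04). Hspb6 (1.20 ± 0.045) and Hspb11 (0.53 ± 0.066) rose in culture. On the hybridization-control scale no gene of this list rose with dexamethasone and 3 fell, where 4.04% of all genes rose and 77.6% fell.

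The HSP70 and HSP110 list had 5 of 7 genes higher and 1 lower in culture, and 3 higher and 3 lower with dexamethasone. Hspa4l, an HSP110 relative, and Hspa13, an HSP70 of microsomes, both rose in culture (0.64 ± 0.065 and 0.47 ± 0.056) and fell with dexamethasone (-0.48 ± 0.065 and -0.51 ± 0.056), unlike Hspa1b (adjusted p at most 5.63e-05). Of 8 HSP70 co-chaperone genes, 4 rose and none fell in culture, while none rose and 4 fell with dexamethasone. Hspbp1 (0.78 ± 0.067), Bag5 (0.54 ± 0.057) and Bag1 (0.45 ± 0.060), nucleotide exchange regulators, rose in culture. The ubiquitin ligase gene Stub1 (-0.29 ± 0.046), Bag4 (-0.24 ± 0.070) and St13 (-0.17 ± 0.049) fell with dexamethasone (adjusted p at most 0.0117).

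HSP90 co-chaperones moved both ways, 4 higher and 2 lower of 9 in culture and 3 higher and 3 lower with dexamethasone. Cacybp (0.79 ± 0.058) and the kinase co-chaperone Cdc37 (0.41 ± 0.053) rose in culture. Cdc37 (-0.23 ± 0.053) fell with dexamethasone and Stip1 (0.32 ± 0.087), which joins HSP70 to HSP90, rose. On the hybridization-control scale 1 gene of this list rose with dexamethasone (1.55) and 6 fell, where 4.04% of all genes rose and 77.6% fell. Fkbp5, a co-chaperone of the glucocorticoid receptor and a target of it, fell by 1.45 ± 0.10 in culture without dexamethasone (adjusted p = 4.25e-08). Its rise in the separate explants kept with dexamethasone, relative to incubated explants, is given above.

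The DNAJ list was evenly divided in culture, with 6 of 14 genes higher and 6 lower, and had 3 higher and 4 lower with dexamethasone. Dnajc2 (1.20 ± 0.057), which works at the ribosome, and Dnaja2 (0.56 ± 0.042) rose in culture, and Dnajb2 (-0.52 ± 0.047) fell. With dexamethasone Dnajb14 (0.40 ± 0.050) rose, and Dnajc9 (-0.66 ± 0.061) and Dnajb6 (-0.25 ± 0.041) fell (adjusted p at most 2.6e-04). On the hybridization-control scale no gene of the DNAJ list rose with dexamethasone and 13 fell, where 4.04% of all genes rose and 77.6% fell. Of the factors and regulators listed, Hsbp1, which binds heat shock factor 1, was the 1 gene tested, with 0.35 ± 0.057 in culture (adjusted p = 1.05e-04) and -0.009 with dexamethasone.

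**Figure D4:**
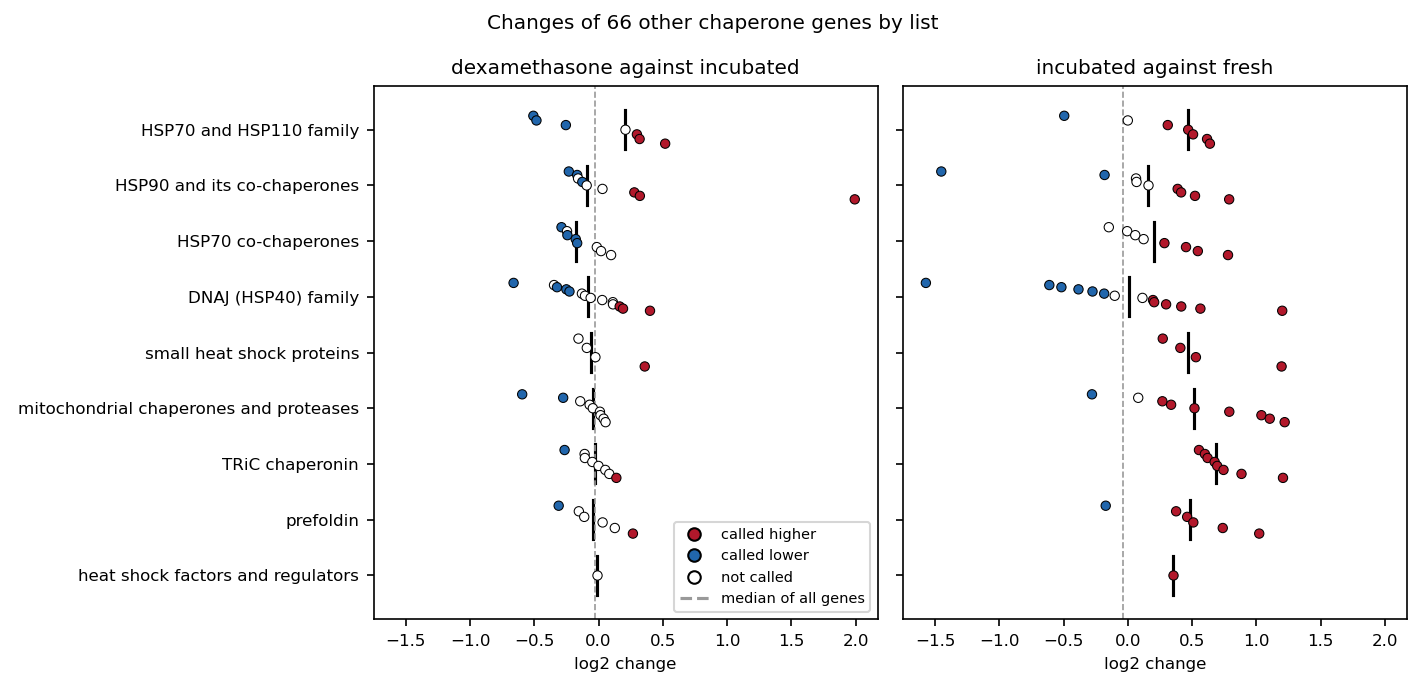
Log2 change of 66 other chaperone genes in 9 lists, with 1 point per gene coloured by its call, a black bar at each list's median and a dashed line at the median of all genes. In culture all 8 TRiC genes lie to the right of the dashed line, and with dexamethasone most lists scatter around it, with Fkbp5 alone near 2.

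The genes outside the 8 whose centred log2 signals lay nearest to Hspa1a over the 9 arrays were Cebpd, Csnk2a1 and Cebpb, among 10234 tested. Their root-mean-square differences from Hspa1a were 0.089, 0.101 and 0.110. Cebpd averaged 3645 with dexamethasone, 1605 in incubated explants and 857 in fresh membrane. Nearest to Hspd1 were Arhgef5, Arpc5 and Gtf3c6, at 0.038, 0.039 and 0.040. The points share arrays and group means, so this likeness is a description.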

How the data were processed

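The deposited table holds 1 intensity per probe set and array on a linear scale, which the authors scaled to a target of 500 using every probe set, per the labels' description. Per the labels, RNA went through in vitro transcription in 2 rounds. The software that summarised probes is not given in the sources used here. Genes were named from the platform annotation, with symbols updated through RefSeq. Of the probe sets, 34945 had 1 gene symbol, 932 had several, 9160 had none and 64 were controls. Of the chaperone lists, Hsp90ab1, Ptges3, Ppid, Dnajc19 and Hsf1 had no probe set naming that gene alone and were not used here.

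Tested probe sets reached 200 on at least 3 of 9 arrays. A gene high in 1 group alone entered through that group. A linear model with a mean per group was fitted with limma 3.58.1 (R 4.3.3, eBayes with an intensity trend) to log2 of signal plus 32, which understates the changes of dim probe sets. Benjamini-Hochberg adjustment ran over all tested probe sets of a comparison, and adjusted p under 0.05 was called. The fit was tested on simulated data. Other chaperone genes named are, per list and main comparison, up to 3 called genes with the smallest adjusted p and at least 1 group mean of 200, plus Hspa1b. For likeness of pattern, the 3 nearest genes to Hspa1a and to Hspd1 were taken. Members and lists were chosen with earlier results of these data known. No 2 arrays were identical. Probe sets ending in _s_at, _x_at or _a_at, which may bind several transcripts, represent Hspa1b, Hspa8, Hsp90aa1, Hspb1 and Hspe1 and several of the other genes. Alternatives were other scalings, pseudocounts of 1 and 100, other filters, eBayes without the trend, 2 groups alone, other representing probe sets, the array letter as a block and leaving out each array. Figures were drawn with matplotlib 3.10.9.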

Additional observations from a re-analysis of the deposited data

How the results depend on the processing

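Hybridization-control scaling moved the dexamethasone results furthest. It left 1 of the 8 genes higher and 3 lower than in incubated explants, and 1 of the 66 other chaperone genes higher and 58 lower. Of all genes, 4.04% were higher and 77.6% lower on that scale. The same scaling turned the called rise of Hspa8 into a called fall (-0.287). Hsp90aa1 (-0.06) and Dnajb1 (-0.026) changed sign and were no longer called. Hspd1, not called as deposited, was called lower (-0.465). Against fresh membrane hybridization-control scaling called 7 of the 8 higher and 1 lower. Of the 66, 34 were higher and 16 lower, where 26.8% of all genes were higher and 49% lower. Median centring called 1 of the 8 lower with dexamethasone, Hspe1, and 6 of the 66 higher and 33 lower, and gave -0.107 for Hspd1. Of all genes, 13.8% were higher and 41.8% lower. Against fresh membrane it called 51 of the 66 higher and 5 lower, where 47.5% of all genes were higher and 30.9% lower. Quantile normalization gave -0.013 for Hspd1, and leaving out each array in turn gave -0.019 to 0.048. With the 2 compared groups alone, 1 of the 8 genes was lower with dexamethasone. The share of all genes in that fit is not given here, so this count is not read as a result about chaperones.

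In culture no gene of the 8 was lower with quantile normalization, median centring, hybridization-control scaling, the mean of a gene's probe sets or probe sets without the suffixes _s_at, _x_at and _a_at (0 each). The sign of Hspa8 changed to 0.08 with median centring, 0.079 with hybridization controls and 0.057 with the mean, none of them called. Without suffixed probe sets Hspa8 was at 0.532. Its difference from fresh membrane with dexamethasone changed sign to 0.152, 0.184 and 0.619 under median centring, the mean and probe sets without suffixes. Of the 66 genes, 4 were lower in culture with median centring and 4 with hybridization controls, where 23.5% and 23.8% of all genes were lower. Without suffixed probe sets, which leave Hspb1 unmeasured, dexamethasone raised 3 of 7 members and 7 other chaperone genes. With the mean of probe sets, 14 of the other genes were lower against fresh membrane. Shares of all genes are not given here for either setting, so neither count is read as a result about chaperones. The cause of these shifts with processing was not tested.

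With the array letter as a replicate block, 7 of the 8 genes were higher and 1 lower in culture, 6 higher with dexamethasone, and 46 of the 66 other genes higher in culture. Shares of all genes with that block are not given here, so these counts are not read as a result about chaperones. Deviations of arrays of 1 letter correlated at -0.062 to 0.164, and those of unlike letters at -0.157 to 0.153. The letters showed no clear pairing, and a batch shared by arrays was not tested. Leaving out 1 array kept every count of calls within 1.5 times. No depth applies to arrays, and 3 arrays a group limit the precision. Because 3 chips were hybridised per biological sample, per the design text, the spread between arrays may not include variation between pools of membranes.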
